A study of Homo sapiens with 4 samples.

Results

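The ID proteins, the inhibitory SMADs, BAMBI and receptors of bone morphogenetic proteins were followed in MCF10A cells, an immortalised human mammary epithelial line. Cells with short hairpin RNAs against the ubiquitin ligases Cbl and Cbl-b were compared with control cells. The 9 genes taken were ID1, ID2, ID3, ID4, SMAD6, SMAD7, BAMBI, BMPR1A and BMPR2. They were chosen by gene symbol, with the difference between the double knockdown and control arrays already known from earlier results, so their own values are a description without a test. A probe set counted as a member if the platform annotation gave it 1 of these symbols and no other. This rule found 21 of 54675 probe sets, for 8 of the 9 genes. No probe set was named for BMPR1A in the annotation used, and it was not analysed here. Total RNA from cells in normal growth (DFCI-1 medium) was hybridised to 4 Affymetrix U133 Plus 2.0 arrays. The 2 arrays labelled dKD held cells with hairpins against Cbl and Cbl-b, and the 2 control arrays held cells with a control hairpin. Separate cultures for the arrays of a group are not stated in the labels. Each p-value and SE therefore reflects the spread among these 4 arrays, drawn in the fit toward that of all tested features. That spread may be technical. The labels also do not say whether the cells of a group were a clone or a pool.

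Bone morphogenetic proteins (BMPs) bind a type II receptor such as BMPR2, which activates a type I receptor, and the type I receptor phosphorylates SMAD1, SMAD5 and SMAD9. These join SMAD4 in the nucleus, where the ID genes are among their best known targets. ID proteins have a helix-loop-helix domain but no DNA-binding region, and they hold E proteins and other basic helix-loop-helix (bHLH) factors away from DNA. SMAD6, SMAD7 and BAMBI are feedback inhibitors of the pathway: the inhibitory SMADs block receptors and other SMADs, and BAMBI is a pseudoreceptor that lacks a kinase domain. In mammary epithelium, ID1 has been linked to proliferation and to a block of differentiation.

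The promoters of ID1, ID3 and BAMBI are printed because these members had the largest log2 differences between the groups. Each is the RefSeq window of 300 bases on GRCh38.p14, from 250 bases before the gene's start to 50 after it, 5′ to 3′ on the gene's strand. Capitals mark the letters GGCGCC and CAGAC (also as GTCTG), both known from SMAD binding, and TATAAA on either strand. The windows lie at chr20:31605039-31605338 (+ strand) for ID1, chr1:23559452-23559751 (- strand) for ID3 and chr10:28677271-28677570 (+ strand) for BAMBI.
ID1: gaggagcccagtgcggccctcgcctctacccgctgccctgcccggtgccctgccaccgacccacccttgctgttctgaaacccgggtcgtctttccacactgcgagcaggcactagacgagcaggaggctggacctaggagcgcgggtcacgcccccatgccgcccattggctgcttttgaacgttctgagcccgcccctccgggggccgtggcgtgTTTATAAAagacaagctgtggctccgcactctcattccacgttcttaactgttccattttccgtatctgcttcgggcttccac
ID3: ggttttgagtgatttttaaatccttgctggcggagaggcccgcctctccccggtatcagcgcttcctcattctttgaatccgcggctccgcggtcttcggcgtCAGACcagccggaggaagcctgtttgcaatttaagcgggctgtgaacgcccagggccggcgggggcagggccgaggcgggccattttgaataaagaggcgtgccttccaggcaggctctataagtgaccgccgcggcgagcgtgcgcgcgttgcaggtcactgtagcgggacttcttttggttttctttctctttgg
BAMBI: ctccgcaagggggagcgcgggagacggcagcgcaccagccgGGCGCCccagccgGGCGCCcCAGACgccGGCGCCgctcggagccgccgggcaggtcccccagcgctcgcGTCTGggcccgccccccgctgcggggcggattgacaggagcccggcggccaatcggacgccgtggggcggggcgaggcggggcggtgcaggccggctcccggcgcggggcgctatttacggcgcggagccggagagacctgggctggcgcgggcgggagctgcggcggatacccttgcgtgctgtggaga

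The 3 windows differed in these letters. BAMBI held GGCGCC at 3 places, the first from base -209 to -204 relative to the start, and CAGAC at 2 places, once on each strand. GGCGCC was present in 19.2% of all 35114 windows of this length and CAGAC in 45.3%. ID3 held CAGAC once, at bases -147 to -143, and no GGCGCC. ID1 held neither, but TATAAA on both strands in 1 overlapping stretch from base -33 to -26, and TATAAA was found in 11.5% of all windows. Of the other members, BMPR2 held GGCGCC once and CAGAC 4 times. CAGAC was also present in the ID4 window and in 2 of the 3 windows of SMAD7. TATAAA was also present in the ID4 window and in 1 window of SMAD7. SMAD6 alone among the windows of the 8 genes held the palindrome GTCTAGAC (bases -12 to -5), which 0.202% of all windows hold. The E-box letters CANNTG, bound by bHLH factors, were absent from the ID1, ID3 and BAMBI windows, present in 68.7% of all windows and found once each in those of ID2, ID4, SMAD6 and BMPR2 and in 2 of the 3 windows of SMAD7. In the printed windows, matches of different motifs did not overlap. A match is a description of the letters and not a binding site, and the window does not reach distant elements.

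The knockdown itself was read first. CBL, a target of the hairpins, read 31.1 and 29.0 on the arrays labelled dKD and 125.9 and 84.4 on the control arrays at its brightest probe set (log2 difference -1.37 ± 0.15 SE, adjusted p = 0.00139 by limma). The other tested CBL probe sets were also lower on the arrays labelled dKD, but by much less, with log2 differences of -0.33 and -0.20. CBLB, the other target, was higher on the arrays labelled dKD, at 94.8 and 99.5 against 64.3 and 70.0 on the control arrays (0.45 ± 0.09 SE, adjusted p = 0.0148 by limma). This direction goes against the label, so the arrays are named by their label throughout. The CBLB call was lost without dKD replicate 1 or dKD replicate 2 (up to 0.132). The 4 arrays had medians of 14.5 to 14.7. Basal markers of the line (KRT5, KRT14, ITGB4, ITGA6, EGFR, LAMB3 and CDH3) were all above the brightness minimum, with summed intensities of 17669 to 19313 on the arrays labelled dKD and 27553 to 29567 on the control arrays. KRT14 (mean 4488 on the arrays labelled dKD, 13818 on the control arrays) and KRT5 (4848 on the arrays labelled dKD, 8056 on the control arrays) carried this difference, while LAMB3 was higher on the arrays labelled dKD (5443 against 2608 on the control arrays). Luminal markers summed to 6295 to 6713 on the arrays labelled dKD and 4500 to 4714 on the control arrays, with 5 of 8 above the minimum and KRT19, PGR and FOXA1 below it. KRT18 made up most of that sum, and GATA3 ran the other way (124 on the arrays labelled dKD, 202 on the control arrays). Of 7 leukocyte markers, 5 were above the minimum, and their sum, 1066 to 1161 on the arrays labelled dKD and 318 to 319 on the control arrays, was mostly CD14 (976 and 1074 on the arrays labelled dKD, 229 and 231 on the control arrays), while PTPRC and LYZ were below the minimum on every array. Of 7 fibroblast markers 3 and of 6 endothelial markers 2 were above it, with sums of 247 to 249 on the arrays labelled dKD and 322 to 327 on the control arrays for the fibroblast list and of 71.7 to 73.5 on the arrays labelled dKD and 78.4 to 79.7 on the control arrays for the endothelial list. The part of these lists in the values below was not tested. In RNA of whole cultures, fewer cells of a kind and less RNA per cell cannot be told apart.

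ID1 had the largest difference among the 9 member probe sets above the brightness minimum, which was the median intensity of all probe sets. This gene, a direct BMP target in many cell types, had intensities of 3674 and 3817 on the arrays labelled dKD and 999 and 863 on the control arrays. Both arrays labelled dKD lay far above both control arrays. The mean was 3745 ± 101 on the arrays labelled dKD and 931 ± 95.7 on the control arrays (SD, n = 2 each), a 3.98-fold difference on the scale log2(intensity + 16) and 4.02-fold without the constant. The log2 difference of 1.99 ± 0.10 (SE) compares with gaps of 0.05 between the arrays labelled dKD and 0.21 between the control arrays. Of 12960 tested genes, each represented by its brightest probe set, 15 had a larger positive difference than ID1. ID1 was measured by a single probe set, 208937_s_at, whose type can match several transcripts, so no second probe set could be set beside it.

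ID3, another ID protein induced by BMPs, had a smaller difference. Its only probe set, 207826_s_at, read 703 and 803 on the arrays labelled dKD and 531 and 631 on the control arrays. The groups did not overlap, but the lower array labelled dKD and the higher control array lay closer together than the arrays within either group. The means were 753 ± 71.0 on the arrays labelled dKD and 581 ± 71.2 on the control arrays (SD, n = 2 each), a 1.29-fold difference. On the log2 scale this was 0.37 ± 0.11 (SE), with gaps of 0.19 between the arrays labelled dKD and 0.24 between the control arrays. Among tested genes, 1115 had a larger positive difference.

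ID2 and ID4 had almost no signal. Both probe sets of ID2, which alveolar growth in the mouse mammary gland needs, lay below the brightness minimum of 14.6, with values between 4.01 and 7.75 over the 4 arrays. A further probe set, 213931_at, named ID2 together with ID2B and was left out by the rule, and its values of 6.48 and 9.24 on the arrays labelled dKD and 10.0 and 9.83 on the control arrays were also dim. ID4, which acts in mammary basal and stem cells, had 5 probe sets, and 4 of them lay below the minimum. The fifth, 209293_x_at, was just above it on average, at 15.4 and 17.3 on the arrays labelled dKD and 15.1 and 11.7 on the control arrays. The groups were separated there by less than the gap between the control arrays, and the log2 difference was 0.14 ± 0.10 (SE).

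**Figure D1:**
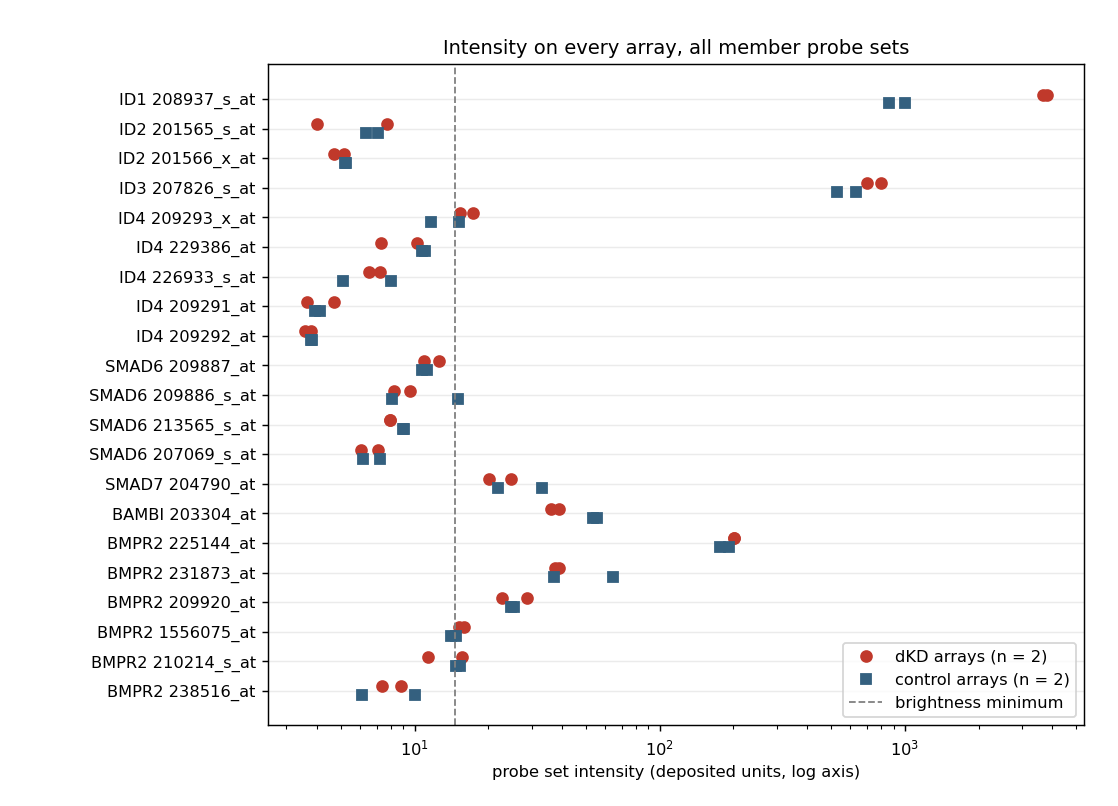
Intensity (log axis, deposited units) of each of the 21 member probe sets on the arrays labelled dKD (circles, n = 2) and the control arrays (squares, n = 2), with the brightness minimum of 14.6 as a dashed line. ID1 stands apart, at 3674 and 3817 on the arrays labelled dKD against 999 and 863 on the control arrays, BAMBI is lower on the arrays labelled dKD, and 12 probe sets have a mean below the minimum.

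The inhibitory SMADs were dim. SMAD7, which recruits SMURF ubiquitin ligases to receptors, read 24.8 and 20.2 on the arrays labelled dKD and 33.1 and 21.8 on the control arrays of probe set 204790_at. These ranges overlapped, since the higher array labelled dKD exceeded the lower control array. The log2 difference was -0.17 ± 0.13 (SE), smaller than the gap of 0.38 between the control arrays, and without control replicate 1 it was 0.02. SMAD6, which acts mainly on BMP signals, had 4 probe sets with values from 6.03 to 15.03, all with a mean below the minimum. Their log2 differences lay between -0.14 and 0.04. In 213565_s_at both arrays labelled dKD (7.93 and 7.97) lay below both control arrays (8.97 and 9.08), and in the other 3 the groups overlapped.

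BAMBI was lower on the arrays labelled dKD. Its single probe set, 203304_at, read 39.0 and 36.03 on the arrays labelled dKD and 55.4 and 53.3 on the control arrays. Both arrays labelled dKD lay below both control arrays. The means were 37.5 ± 2.07 on the arrays labelled dKD and 54.3 ± 1.52 on the control arrays (SD, n = 2 each), 1.32-fold lower with the constant and at a ratio of 0.690 without it. The log2 difference of -0.40 ± 0.09 (SE) was larger than the gaps of 0.08 between the arrays labelled dKD and 0.04 between the control arrays. Of the tested genes 648 had a larger negative difference.

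BMPR2, the type II receptor for BMPs, was described by 6 probe sets that did not move together. The brightest, 225144_at, read 201.4 and 200.8 on the arrays labelled dKD and 191.9 and 175.6 on the control arrays, a log2 difference of 0.12 ± 0.09 (SE). Both arrays labelled dKD were higher there, but the higher control array lay closer to them than to the other control array. The next, 231873_at, read 38.9 and 37.5 on the arrays labelled dKD and 64.2 and 36.9 on the control arrays. Its log2 difference of -0.27 ± 0.18 (SE) came with a gap of 0.60 between the control arrays and was 0.03 without control replicate 1. The pooled SD of this probe set's own log2 values was 0.30, above the SE of the fit. The remaining probe sets above the minimum, 209920_at and 1556075_at, had log2 differences of 0.01 ± 0.10 and 0.05 ± 0.08 (SE). The other 2 were below the minimum, with values from 6.11 to 15.7.

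Across the 9 member probe sets above the minimum, both arrays labelled dKD lay above both control arrays in 5 (ID1, ID3, 1 of ID4 and 2 of BMPR2), below them in 1 (BAMBI), and the groups overlapped in 3. Of 22925 tested probe sets, 27.8% were separated with the arrays labelled dKD higher and 28.9% with the arrays labelled dKD lower. The ID4 probe set and BMPR2 1556075_at passed the minimum only through the arrays labelled dKD. Their means on the control arrays, 13.4 and 14.5, lay below it. For this reason, and since the members were chosen with this contrast known, nothing is read from these counts. Between probe sets of different genes only differences were set side by side, since each probe set responds to RNA with its own strength.

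**Figure D2:**
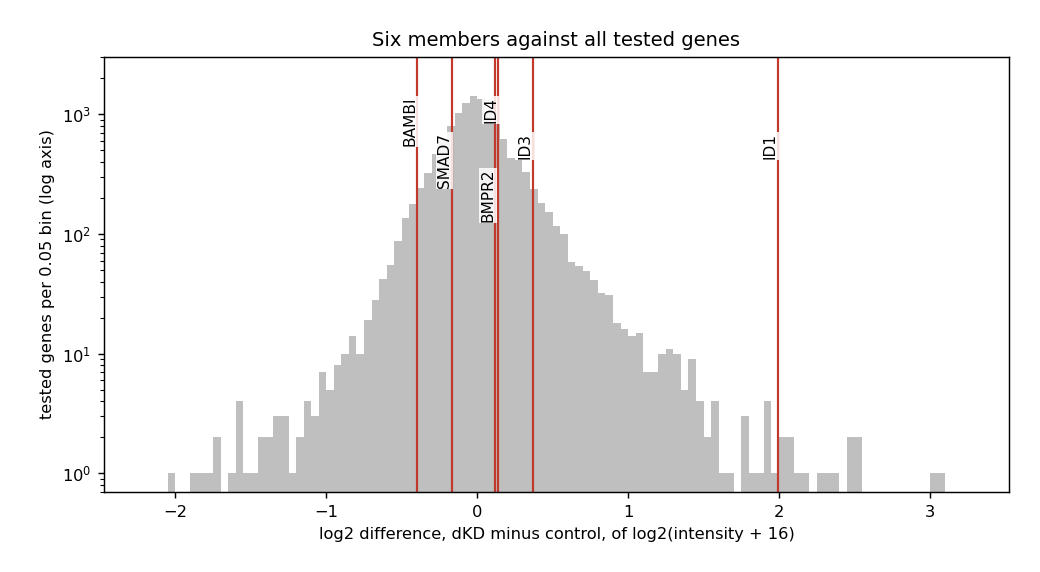
Histogram of the log2 difference (dKD minus control, of log2(intensity + 16)) over 12960 tested genes, with the number of genes per bin on a log axis and a line for the brightest tested probe set of each of 6 members. ID1, at 1.99, lies in the far upper tail with 15 genes beyond it, ID3 (0.37) and BAMBI (-0.40) lie on the shoulders, and ID4, BMPR2 and SMAD7 lie near the centre.

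The genes whose pattern over the 4 arrays was most like that of ID1 were found by Euclidean distance between log2 values, each gene centred on the mean of its control arrays. IGFBP6, a carrier of insulin-like growth factor II, came first at a distance of 0.12, with 1425 and 1539 on the arrays labelled dKD and 382 and 364 on the control arrays. NRIP1, a corepressor of nuclear receptors, followed at 0.13, and MANF, a secreted protein of endoplasmic reticulum stress, at 0.15. Nearest to ID3 were THOC2, a subunit of the mRNA export complex TREX, at 0.02, KGD4, a mitochondrial protein, at 0.02, and MRPL42, a mitochondrial ribosomal protein, at 0.04. None of THOC2, KGD4 and MRPL42 was called by limma (adjusted p = 0.056, 0.067 and 0.061). Other tested probe sets had log2 differences of 0.30, 0.25 and -0.05 for THOC2 and of 0.26 and 0.01 for MRPL42. With 4 arrays in 2 groups, such a likeness says little more than a similar size of difference and similar gaps within the groups.

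The rest of the pathway was read from 9 lists with 127 distinct genes, of which 85 were above the minimum on their brightest probe set. Of these, 10 were higher and 7 lower on the arrays labelled dKD at an adjusted p under 0.05 (limma, adjusted over all tested genes). Among all 12960 tested genes, 9.41% were called higher and 6.6% lower. The median log2 difference of the 85 genes was -0.01, as was that of all tested genes. The count fell to 7 without dKD replicate 2 and to 9 when probe sets of a type open to several transcripts were dropped. The lists were put together with earlier results of these data known.

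Among ligands, BMP2 was lower on the arrays labelled dKD, and GDF15, TGFB2 and TGFB1 were higher. Of 7 tested BMP and GDF ligands, BMP2 was lower and none was higher by limma (0 also at an unadjusted p under 0.05), with a list median of -0.08. BMP2, a ligand that induces ID genes, read 13.0 and 14.6 on the arrays labelled dKD and 27.4 and 21.4 on the control arrays (log2 difference -0.44 ± 0.10 SE, adjusted p = 0.0260). Both values on the arrays labelled dKD were below the minimum, and the call was lost without dKD replicate 1, dKD replicate 2 or control replicate 1. It was also lost with a constant of 64, without a brightness filter and with all its probe sets averaged. Of 7 tested TGF-beta and activin ligands, 3 were higher and none lower by limma (2 lower at an unadjusted p under 0.05), with a median of 0.21. GDF15, a stress-induced distant member of the family, had 526 ± 24.4 on the arrays labelled dKD and 127 ± 8.21 on the control arrays (SD, n = 2 each), a log2 difference of 1.92 ± 0.09 (SE) with adjusted p = 2.98e-05 by limma. Among the alternatives its lowest log2 difference was 0.63.

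TGFB2, a TGF-beta ligand, read 140 and 145 on the arrays labelled dKD and 74.5 and 63.3 on the control arrays (log2 difference 0.90 ± 0.10 SE, adjusted p = 0.00116 by limma). Its 2 other tested probe sets were also higher, by 0.82 and 0.55. TGFB1, its close relative, had a log2 difference of 0.46 ± 0.10 (SE, adjusted p = 0.0245 by limma), which rested on 1 probe set: the other was at -0.02. The TGFB1 call was lost without dKD replicate 1, dKD replicate 2 or control replicate 2. It was also lost without a brightness filter, without probe sets open to several transcripts and with all its probe sets averaged. Both genes encode ligands that signal through SMAD2 and SMAD3 rather than the BMP branch.

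Of the extracellular BMP antagonists, 6 were tested and none was called in either direction by limma, with 1 lower and 0 higher at an unadjusted p under 0.05. NBL1, which binds BMPs, had 544 and 531 on the arrays labelled dKD and 779 and 632 on the control arrays (log2 difference -0.37 ± 0.11 SE, adjusted p = 0.0596). It was called under 5 of 14 alternatives, among them that without control replicate 2 (0.0177). FSTL1 and FSTL3, secreted follistatin-like proteins, had log2 differences of -0.15 and -0.16. The median of this list was -0.11.

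Of 14 other receptors and co-receptors tested, 1 was higher and 1 lower, with a median of 0.01. TGFBR3, the co-receptor betaglycan that presents TGF-beta 2 to its receptors, read 49.0 and 51.1 on the arrays labelled dKD and 101.5 and 80.1 on the control arrays (log2 difference -0.69 ± 0.11 SE, adjusted p = 0.00707 by limma). Its second tested probe set was lower too, by -0.58. ACVR2B, a type II receptor for activins and some BMPs, read 58.5 and 73.3 on the arrays labelled dKD and 44.8 and 30.3 on the control arrays (0.62 ± 0.15 SE, adjusted p = 0.0268 by limma). A second ACVR2B probe set was at -0.08, and the call was lost without dKD replicate 2 or control replicate 2. It was also lost with a constant of 64, without a brightness filter and with all its probe sets averaged.

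None of the 6 receptor-regulated and common SMADs was called by limma, with 2 higher and 0 lower at an unadjusted p under 0.05. SMAD3, of the TGF-beta branch, read 270.0 and 258 on the arrays labelled dKD and 219 and 159 on the control arrays (log2 difference 0.47 ± 0.14 SE, adjusted p = 0.0557), and it was called under 5 of 14 alternatives, among them that without control replicate 1 (0.0108). SMAD1, of the BMP branch, had a log2 difference of 0.24 ± 0.09 (SE, adjusted p = 0.113 by limma), and with all its probe sets averaged it was called (0.33, adjusted p = 0.0453). SMAD4, the common partner, was at -0.19, and at 0.12 when all its probe sets were averaged.

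Of 16 SMAD ligases, corepressors and phosphatases tested, 3 were higher and 1 lower, with a median of 0.09. SKIL, a corepressor that TGF-beta signals themselves induce, had 231 ± 10.0 on the arrays labelled dKD and 107 ± 10.5 on the control arrays (SD, n = 2 each), a log2 difference of 1.01 ± 0.10 (SE) with adjusted p = 0.000698 by limma. Its other tested probe set was higher by 0.51, and the lowest log2 difference of SKIL among the alternatives was 0.31. NEDD4L, a ubiquitin ligase for activated SMAD2 and SMAD3, was higher by 0.57 ± 0.09 (SE, adjusted p = 0.00625 by limma), and all 5 of its other tested probe sets had the same sign, from 0.02 to 0.49. TGIF1, a homeodomain corepressor, was higher by 0.49 ± 0.13 (SE, adjusted p = 0.0348 by limma), with its other tested probe sets at 0.56 and 0.05. Its call was also lost with a constant of 1 (0.0648) or 64 (0.0538), without a brightness filter (0.105) and without multi-transcript probe sets (0.754). TOB1, which binds receptor-regulated SMADs and dampens BMP signals, was lower by -0.57 ± 0.10 (SE, adjusted p = 0.00880 by limma). Calls were lost for NEDD4L and TOB1 without dKD replicate 2, and for NEDD4L also without multi-transcript probe sets. The TGIF1 call was lost without dKD replicate 1, dKD replicate 2 or control replicate 2.

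Other BMP target genes gave 2 higher and none lower of 8 tested (0 lower also at an unadjusted p under 0.05), with a median of 0.04. RUNX2, a transcription factor of bone formation, read 46.9 and 49.4 on the arrays labelled dKD and 27.4 and 21.0 on the control arrays (log2 difference 0.68 ± 0.10 SE, adjusted p = 0.00549 by limma). Its 2 other tested probe sets were at -0.02 and -0.08, and with all its probe sets averaged, dim ones included, the adjusted p was 0.524 by limma. HEY1, a bHLH repressor that Notch also induces, was higher by 0.44 ± 0.10 (SE, adjusted p = 0.0207 by limma), while its second probe set was at -0.0081. The HEY1 call was lost without dKD replicate 1, dKD replicate 2 or control replicate 2. It was also lost without multi-transcript probe sets and with all its probe sets averaged. ATOH8, MSX1, MSX2 and JUNB, 4 further genes that BMPs can induce, had overlapping groups and log2 differences of 0.02, -0.07, -0.08 and 0.06. DLX2 and SP7, both close to the brightness minimum, had separated groups. DLX2 was higher on the arrays labelled dKD (0.11) and SP7 lower (-0.09), and neither was called. ATOH8, MSX1, MSX2, JUNB, DLX2 and SP7 were named after their values were seen.

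Of 13 TGF-beta target genes tested, 1 was higher and 4 lower, with a median of -0.11. SKIL was the one that was higher. THBS1, a matrix glycoprotein whose gene ID1 represses in mouse cells, had 53.4 ± 3.67 on the arrays labelled dKD and 252 ± 106 on the control arrays (SD, n = 2 each), a log2 difference of -1.89 ± 0.23 (SE) with adjusted p = 0.00200 by limma. Its control arrays lay far apart, at 328 and 177. Other tested probe sets of THBS1 were at -1.99 and -0.81, and its smallest negative difference among the alternatives was -0.70. Any link between the THBS1 and ID1 values was not tested. FN1, fibronectin, was lower by -1.28 ± 0.17 (SE, adjusted p = 0.00311 by limma) and CCN1, a matrix protein, by -0.84 ± 0.14 (SE, adjusted p = 0.00719 by limma). A second CCN1 probe set was at -0.19. CCN1 had 0.0560 without dKD replicate 2. TAGLN, a protein of contractile cells, was named after its values were seen and was lower by -0.59 ± 0.12 (SE, adjusted p = 0.0176 by limma), with 1 further probe set at -0.62 and another at -0.00024. Its call was lost without dKD replicate 2 or control replicate 1, without a brightness filter and without multi-transcript probe sets.

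The E proteins and other bHLH factors include the partners that ID proteins bind. Of 11 tested E proteins and other bHLH factors, 1 was higher and none lower by limma (3 lower at an unadjusted p under 0.05), with a median of 0.01. BHLHE40, a repressor of the cellular clock, read 376 and 402 on the arrays labelled dKD and 288 and 191 on the control arrays (log2 difference 0.69 ± 0.16 SE, adjusted p = 0.0281 by limma). Its other probe set was higher by 0.44. The call was lost without dKD replicate 1 or dKD replicate 2, with a constant of 1 or 64 and without a brightness filter. It was also lost with all its probe sets averaged. The E proteins, named after their values were seen, had log2 differences of 0.12 ± 0.09 for TCF3, 0.18 ± 0.10 for TCF12 and -0.34 ± 0.14 (SE) for TCF4, none of them called.

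**Figure D3:**
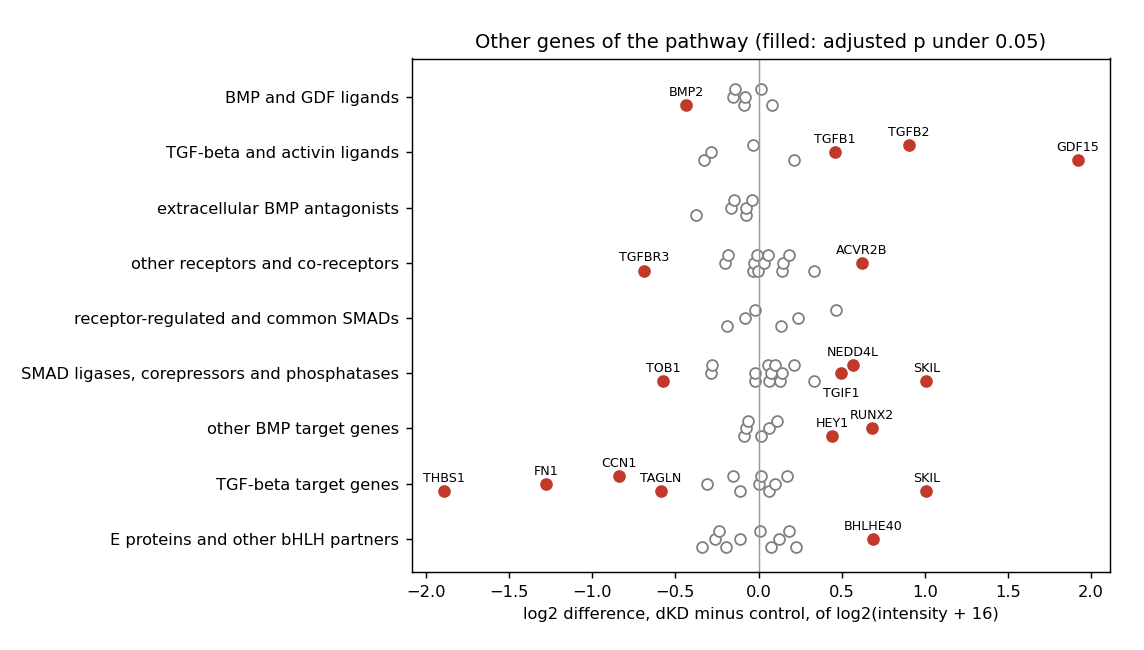
Log2 difference (dKD minus control, of log2(intensity + 16)) of each tested gene in the 9 pathway lists, 1 row a list, with filled points and names for genes at an adjusted p under 0.05 (limma) and open points for the others. Filled points lie on both sides of 0, GDF15 (1.92) and SKIL (1.01) on the right and THBS1 (-1.89) and FN1 (-1.28) on the left, and the BMP antagonist and SMAD rows have none.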

How the data were processed

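RNA of 4 samples was measured on Affymetrix U133 Plus 2.0 arrays, and the titles give the groups. The range of the deposited numbers shows intensities on a linear scale. Their summarisation and normalization by the authors are not given in the sources used here. They were not normalized again, and scanner values were not analysed here. Probe sets were named from the platform annotation and given current symbols through the RefSeq gene table (GRCh38.p14), matched for 41037 of 41091 probe sets that name 1 gene. A further 1801 name several genes, 11721 none, and 62 are controls.

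Values were taken as log2(intensity + 16). The test was limma 3.58.1 (R 4.3.3; lmFit, then eBayes, two-sided, no covariate, 4 arrays), with Benjamini-Hochberg adjustment over all features tested, and was tested on simulated data. Every adjusted p in the text is from limma. Every SE is the moderated SE of that fit, in which a feature's variance is drawn toward that of all features tested. It can lie below or above the SE from that feature's own 4 values. Tested genes were those whose brightest probe set had a mean over the 4 arrays of at least 14.6, the median of all probe sets but controls. Member probe sets were read from the same fit over 22925 single-gene probe sets above that minimum. Folds carry the constant, which makes the change of dim genes look smaller. The number of arrays limits the precision of every value.

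The members and lists were chosen with earlier results of these data known. In each list the called genes with the smallest p were named, at most 4, or 3 by smallest p where none was called. Alternatives were constants of 1 and 64, quantile normalization, median centring, no brightness filter or one at 4 times the median, an intensity trend in the prior, dropping probe sets of a multi-transcript type, averaging all probe sets of a gene, a replicate block, and leaving out each array.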

Additional observations from a re-analysis of the deposited data

How the results depend on the processing

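Among the tested member probe sets, the constant moved 3 dim ones by more than 1 SD of the replicates, BAMBI, 1 of ID4 and 1 of BMPR2. Other filters, priors and the block leave a probe set's log2 difference as it is by construction. The log2 difference of BAMBI was -0.52 with a constant of 1 and -0.22 with 64, as the constant itself sets for a dim probe set. When each array was left out in turn, it lay between -0.43 and -0.36, that of ID1 between 1.89 and 2.10, and that of ID3 between 0.25 and 0.49. ID1 and ID3 have no value without multi-transcript probe sets. With 1 array left out, the lone array was assumed to vary like the other group.

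The 2074 genes and 3134 probe sets called became 537 to 2000 genes and 172 to 3073 probe sets with 1 array left out, lowest without dKD replicate 2 and next without dKD replicate 1 (685 and 230). Pathway calls, 17 in all, were 7 without dKD replicate 2 and 12 to 18 without another array. Without a brightness filter there were 1647 probe sets and 11 pathway genes, and without multi-transcript probe sets 1898 and 9. Fewer or more features were tested in these settings. Without multi-transcript probe sets HEY1 was at -0.0081 and TGFB1 at -0.018, and with the mean of all probe sets SMAD4 was at 0.12. Of 421 recomputed values of 31 other genes, 46 lost and 25 gained a call, and the cause was not tested.

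The titles number the arrays 1 and 2 in both groups, and nothing says that equal numbers share a culture. Deviations of equal numbers correlated at 0.244 across genes. With the replicate block 2503 genes and 23 pathway genes were called.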
